A study of Mus musculus with 2 samples.

Results

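Eicosanoids are signalling lipids that cells make from arachidonic acid, a fatty acid held in membrane phospholipids. Described here are 10 genes for the enzymes and helper proteins of their synthesis, chosen by symbol: Pla2g4a, Ptgs1, Ptgs2, Ptges, Ptges3, Tbxas1, Alox5, Alox5ap, Lta4h and Ltc4s. Each symbol was matched to the gene name in the deposited transcript table, and its gene identifier was then read in the gene table. All 10 matched, out of 55536 genes in the tables, of which 22028 are annotated as protein-coding. They were named as a list of genes, not by a threshold on a measured value.

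A phospholipase A2 frees arachidonic acid from membranes. Cyclooxygenases turn it into prostaglandin H2, from which terminal synthases make prostaglandin E2, prostaglandin D2, prostacyclin and thromboxane A2. In the other branch, 5-lipoxygenase works with its activating protein to make leukotriene A4, which is either hydrolysed to the neutrophil attractant leukotriene B4 or joined to glutathione to give the cysteinyl leukotrienes. Macrophages are known to release products of both branches, and endotoxin is a textbook inducer of cyclooxygenase 2 and of the inducible prostaglandin E synthase in them.

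The data were 2 total RNA-seq libraries, depleted of ribosomal RNA, from the nuclear fraction (nucleoplasmic RNA) of bone-marrow-derived macrophages of C57BL/6J mice. Both libraries belonged to 1 condition. The cells had received Lipid A, the part of bacterial endotoxin that activates TLR4, at 100 ng/ml for 12 h, were washed and kept without it for 12 h, and were given 100 ng/ml once more for 10 min. Sex and age were not collected, both libraries carry 1 donor identifier, and the labels do not say whether the replicates were separate cultures or animals, so the spread between them may be partly technical. Replicate 1 was made from 1 µg of RNA and replicate 2 from 500 ng, both with a size range of 250 to 400. Other conditions, untreated cells among them, were not analysed here, so no level below is a response to Lipid A, and RNA outside the nucleus was not measured.

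Expected counts on genes, which are the authors' estimated numbers of reads, summed to 24444219 in replicate 1 and 18051097 in replicate 2. Levels are the authors' TPM, which divide counts by transcript length and allow genes to be compared. The macrophage label was checked against 8 marker genes, all 8 of which were detected, with a summed level of 2609 TPM in replicate 1 and 2469 TPM in replicate 2. Of 11 markers of mast cells, basophils and eosinophils, which also make leukotrienes, 0 were detected and 6 were at 0 in both libraries of the gene table. Their sum was 2.97 and 1.62 TPM, most of it from Hdc at 2.62 and 0.85 TPM. Of 9 neutrophil markers 0 were detected, with sums of 1.30 and 0.600 TPM. Of 8 markers of megakaryocytes and platelets, which are rich in Ptgs1 and Tbxas1, only Pf4 was detected, at 15.5 and 16.9 TPM, and the defining platelet gene Itga2b stood at 0.450 and 0.240 TPM. Of the 5 B cell, 6 T and NK cell, 6 fibroblast and 6 endothelial markers only Kdr was detected, at 13.1 and 5.33 TPM. In such bulk samples a gene used by fewer cells and a gene with less RNA per cell cannot be told apart.

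Promoter windows for 9 of the 10 members were taken from RefSeq (build GRCm38.p6), each running from 250 bases before to 50 bases after the annotated start. Alox5ap had no entry. Windows are shown for the cyclooxygenase pair, whose levels are set against each other, for Tbxas1, the highest member, and for Alox5, the lowest. Capitals mark every match, on either strand, to 8 short motifs: the TATA box TATAAA, the GC box GGGCGG, the cyclic AMP response half-site ACGTCA, the C/EBP motif TTGCNNAA, the E-box CACGTG, the PU.1 and Ets motif GAGGAA, the AP-1 motif TGANTCA and the NF-kB consensus. Overlapping matches merge into 1 run of capitals. The Ptgs1 window is chr2:36230176-36230475, plus strand. The Ptgs2 window is chr1:150099781-150100080, plus strand. The Tbxas1 window is chr6:38918736-38919035, plus strand. The Alox5 window is chr6:116461129-116461428, minus strand, printed 5′ to 3′ as transcribed.
Ptgs1: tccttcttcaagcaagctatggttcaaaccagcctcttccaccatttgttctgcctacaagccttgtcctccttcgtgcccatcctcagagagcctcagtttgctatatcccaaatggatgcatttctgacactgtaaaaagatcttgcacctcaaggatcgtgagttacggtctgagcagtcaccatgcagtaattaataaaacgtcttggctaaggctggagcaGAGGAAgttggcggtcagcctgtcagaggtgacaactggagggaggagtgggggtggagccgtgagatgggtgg
Ptgs2: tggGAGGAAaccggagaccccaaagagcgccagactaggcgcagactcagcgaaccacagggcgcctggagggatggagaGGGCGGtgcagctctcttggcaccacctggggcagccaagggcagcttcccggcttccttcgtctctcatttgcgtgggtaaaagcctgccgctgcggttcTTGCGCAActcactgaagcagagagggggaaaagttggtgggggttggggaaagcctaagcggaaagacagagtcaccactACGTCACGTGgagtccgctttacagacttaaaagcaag
Tbxas1: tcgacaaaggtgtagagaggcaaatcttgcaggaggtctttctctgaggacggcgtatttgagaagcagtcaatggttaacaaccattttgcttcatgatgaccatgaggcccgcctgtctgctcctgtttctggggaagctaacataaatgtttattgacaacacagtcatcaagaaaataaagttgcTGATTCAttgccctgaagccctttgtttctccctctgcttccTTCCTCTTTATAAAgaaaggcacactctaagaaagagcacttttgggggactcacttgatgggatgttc
Alox5: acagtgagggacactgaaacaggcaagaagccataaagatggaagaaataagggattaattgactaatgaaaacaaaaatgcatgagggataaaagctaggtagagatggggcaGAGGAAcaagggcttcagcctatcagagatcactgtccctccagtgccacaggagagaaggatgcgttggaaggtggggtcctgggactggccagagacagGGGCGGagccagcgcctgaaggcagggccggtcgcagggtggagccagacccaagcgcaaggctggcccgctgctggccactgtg

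The Ptgs2 window held matches to 5 of the 8 motifs. A C/EBP match, which reads the same on both strands, began 69 bases before the start, a GC box began 170 bases before it and a PU.1 and Ets match 247 bases before it. The cyclic AMP half-site, 12 bases after the annotated start, and the E-box, 16 bases after it, shared 2 bases. All positions refer to the annotated start, and where transcription begins was not measured. Of all 32851 RefSeq windows of this length, 10.8% held the C/EBP motif, 35.7% the GC box, 7.51% the cyclic AMP half-site, 7.15% the E-box and 28.3% the PU.1 and Ets motif. The Ptgs1 window held a single match, to the PU.1 and Ets motif, 24 bases before the start.

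The Tbxas1 window held a TATA box match 11 bases before the start, overlapped by a match on the opposite strand, a PU.1 and Ets match 19 bases before it and an AP-1 match 61 bases before it. The TATA box stood in 13.6% and the AP-1 motif in 7.81% of all windows. The Alox5 window held a GC box 35 bases and a PU.1 and Ets match 136 bases before the start. A match to the NF-kB consensus, which 4.51% of all windows hold, was found in none of the members' windows. A match is a run of letters only, and its absence says nothing about binding of the factor. The RefSeq start of Tbxas1 lies 43.582 kb inside the GENCODE gene, which begins with Tbxas1-206, a form with 8.84% and 9.96% of the gene's TPM. The 3 Tbxas1 transcripts that begin in the printed window took 67.1% of the gene's TPM in replicate 1 and 70.9% in replicate 2, and 82.4% and 82.8% of its expected count. A second deposited transcript table per library, called the other quantification here, gave them 40.8% and 43.4% of the TPM. Transcripts that begin in the printed Ptgs1 window took 34.1% and 66.2% of that gene's TPM (23.7% and 36.3% in the other quantification). For Alox5 the shares were 51.4% and 24.7% (32.9% and 18.4%), and for Ptgs2 100% in both libraries (62.4% and 50.02%).

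Detection required 1 TPM or more together with 10 or more expected counts, in each library. By this rule 8 of the 10 members were detected, and Ltc4s and Alox5 were not. Among all protein-coding genes 42.9% were detected, 9443 of 22028. The members spanned from 36.3 TPM (Tbxas1) to 0.550 TPM (Alox5) on average. The median level was 3.99 TPM over all 10 members and 7.59 TPM over the 8 detected ones, beside 7.99 TPM over the detected protein-coding genes.

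**Figure D1:**
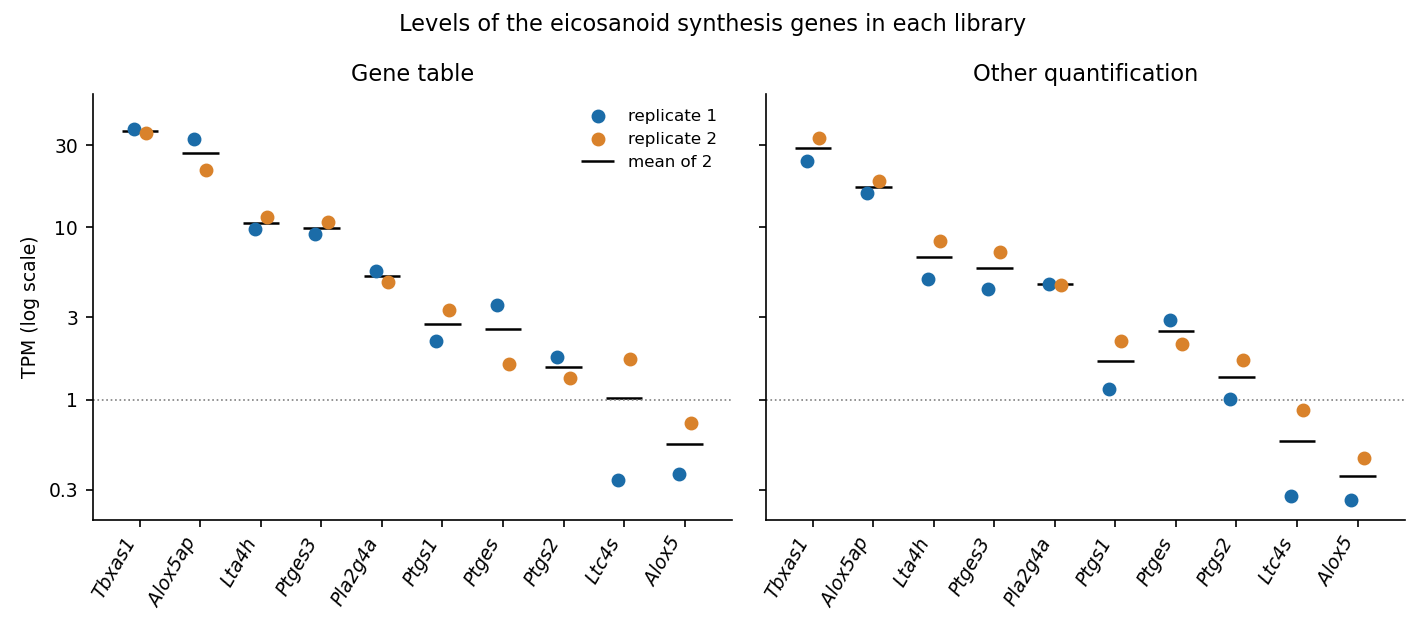
TPM of the 10 members in replicate 1 (blue) and replicate 2 (orange) on a log scale, from the gene table (left) and from the other quantification summed by gene (right); black bars are means of the 2 libraries and the dotted line is 1 TPM. Tbxas1 and Alox5ap are the highest in both, and Ltc4s and Alox5 the lowest.

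Pla2g4a encodes the cytosolic phospholipase A2 that favours arachidonate-containing phospholipids. The gene lies on chromosome 1 from 149829618 to 149961290 (mm10, minus strand, ENSMUSG00000056220.14). Its level was 5.59 TPM in replicate 1 and 4.83 TPM in replicate 2, from expected counts of 581 and 374, which gives 5.21 ± 0.537 TPM (SD, n = 2). This placed it above 34.6% of detected protein-coding genes. The transcript with the full coding sequence, Pla2g4a-201, took 72.6% and 74.2% of the gene's TPM, and a retained-intron form, Pla2g4a-204, took 20.96% and 25.8%. Pla2g4a and Ptgs2 are neighbours, with 138.74 kb between them.

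Ptgs1 encodes cyclooxygenase 1, the form regarded as constitutive in most tissues. It lies on chromosome 2 from 36230426 to 36252272 (plus strand, ENSMUSG00000047250.13). Replicate 1 gave 2.20 TPM from 173 counts and replicate 2 gave 3.32 TPM from 173 counts, or 2.76 ± 0.792 TPM (SD, n = 2). Equal counts from the shallower library made the normalised count 1.21-fold higher in replicate 2, within counting error (95% interval of the log2 ratio -0.04 to 0.59). The lincRNA gene Gm13431 ends 7492 bases before it and stood at 4.62 and 7.74 TPM.

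Ptgs2 encodes cyclooxygenase 2, the inducible form. On chromosome 1 it spans 150100031 to 150108227 (plus strand, ENSMUSG00000032487.8). Its level was 1.77 TPM in replicate 1 from 298 counts and 1.33 TPM in replicate 2 from 156 counts, or 1.55 ± 0.311 TPM (SD, n = 2). Only 3.88% of detected protein-coding genes were lower. The normalised count was 1.58-fold lower in replicate 2 than in replicate 1, short of 2-fold. Ptgs2os, a noncoding gene that starts 68 bases from the Ptgs2 start on the other strand and runs away from it, was at 0 in both libraries of the gene table and had 0 and 2 counts in the other quantification.

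Set against each other per length, with all transcripts of each gene included, Ptgs2 did not exceed Ptgs1 in either library. The log2 ratio of their TPM was -0.31 in replicate 1 and -1.32 in replicate 2, so the cyclooxygenase 2 gene stood at 0.805 times and 0.401 times the level of the cyclooxygenase 1 gene. The mean of -0.82 was close to the SD of 0.71 between the 2 libraries. By counts without division by length the ratio was 0.78 and -0.15, with effective lengths in replicate 1 of 4237 bases for Ptgs2 and 1983 for Ptgs1. On coding forms alone the order changed between the libraries. Ptgs2-201 stood at 1.77 TPM in replicate 1 and 1.33 TPM in replicate 2, and Ptgs1-201 at 0.750 and 2.19 TPM. The split of Ptgs1 between its forms was not resolved, so the order of the coding forms is uncertain.

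Ptges encodes the inducible microsomal prostaglandin E synthase. It lies on chromosome 2 from 30889471 to 30929863 (minus strand, ENSMUSG00000050737.13). It stood at 3.52 TPM in replicate 1 from 461 counts and at 1.61 TPM in replicate 2 from 153 counts, or 2.57 ± 1.35 TPM (SD, n = 2). The libraries differed most at this gene among the members whose mean count reached 50.

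Ptges3 encodes the cytosolic prostaglandin E synthase, a protein also known as the HSP90 co-chaperone p23. Its place on chromosome 10 is 128058954 to 128077272 (plus strand, ENSMUSG00000071072.12). Its level was 9.19 TPM in replicate 1 and 10.8 TPM in replicate 2, from counts of 634 and 498, or 9.98 ± 1.11 TPM (SD, n = 2). It was thus above Ptges in both libraries. The processed pseudogene Ptges3-ps drew 7.60 and 19.7 counts and the related gene Ptges3l 19.2 and 5.12 counts, small beside the counts of Ptges3, whose assignment carried an SD of 2.56 and 5.43 counts in the authors' table.

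Tbxas1 encodes thromboxane A synthase, which turns prostaglandin H2 into thromboxane A2. The gene covers 209.182 kb of chromosome 6, from 38875404 to 39084585 (plus strand, ENSMUSG00000029925.13). It was the highest member, at 37.4 TPM in replicate 1 from 3386 counts and 35.2 TPM in replicate 2 from 2333 counts, or 36.3 ± 1.51 TPM (SD, n = 2). This placed it above 89.8% of detected protein-coding genes. The neighbour Parp12, 1825 bases past its end on the other strand, stood at 82.4 and 64.8 TPM.

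Alox5 encodes 5-lipoxygenase, the enzyme that opens the leukotriene branch. It lies on chromosome 6 from 116410077 to 116461178 (minus strand, ENSMUSG00000025701.12). It had 28 counts in replicate 1 (95% exact Poisson interval 18.6 to 40.5) and 27 counts in replicate 2 (17.8 to 39.3). These gave 0.370 and 0.730 TPM, or 0.550 ± 0.255 TPM (SD, n = 2), under 1 TPM in both libraries. Reads were few but present in each library. March8, which ends 537 bases from Alox5 on the other strand, stood at 18.2 and 20.0 TPM.

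Alox5ap encodes the 5-lipoxygenase activating protein, a membrane protein that presents arachidonic acid to the enzyme. On chromosome 5 it spans 149264767 to 149288153 (plus strand, ENSMUSG00000060063.9). Its level was 32.9 TPM in replicate 1 from 855 counts and 21.6 TPM in replicate 2 from 559 counts, or 27.2 ± 7.96 TPM (SD, n = 2). Normalised counts were 1.26-fold lower in replicate 2, a smaller difference than in TPM, and the authors' effective length for the gene was 656 bases in replicate 1 and 933 in replicate 2. The antisense gene Gm19719, which overlaps it, had 281 and 214 counts.

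The helper was far above its enzyme. Per length, the Alox5ap level was 88.8 times the Alox5 level in replicate 1 and 29.6 times in replicate 2, a mean log2 ratio of 5.68 ± 1.121 (SD, n = 2). The groups of values did not overlap, since the lower Alox5ap value was 21.6 TPM and the higher Alox5 value 0.730 TPM.

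Lta4h encodes leukotriene A4 hydrolase, which makes leukotriene B4. It lies on chromosome 10 from 93453411 to 93484875 (plus strand, ENSMUSG00000015889.8). It stood at 9.82 TPM in replicate 1 from 498 counts and 11.5 TPM in replicate 2 from 424 counts, or 10.7 ± 1.22 TPM (SD, n = 2). The normalised counts differed by 0.04 on the log2 scale (95% counting interval -0.15 to 0.23).

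Ltc4s encodes leukotriene C4 synthase, which joins leukotriene A4 to glutathione. The gene covers 50236461 to 50238616 of chromosome 11 (minus strand, ENSMUSG00000020377.15). It had 6 counts in replicate 1 (95% exact Poisson interval 2.20 to 13.1) and 18 counts in replicate 2 (10.7 to 28.4). These gave 0.340 and 1.71 TPM, or 1.03 ± 0.969 TPM (SD, n = 2). The antisense gene Gm26542, which overlaps most of Ltc4s, had 59 and 56 counts, more than Ltc4s itself. Of the pair that shares leukotriene A4 as substrate, Lta4h was 28.9 times the Ltc4s level in replicate 1 and 6.75 times in replicate 2, a mean log2 ratio of 3.80 ± 1.48 (SD, n = 2).

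In the order of mean TPM, Tbxas1 came first, followed by Alox5ap, Lta4h, Ptges3, Pla2g4a, Ptgs1, Ptges, Ptgs2, Ltc4s and Alox5. The 2 values of Tbxas1 lay above both of Alox5ap, which lay above both of Lta4h, and Pla2g4a lay below Ptges3 and above Ptgs1 without overlap. Neighbours whose values overlapped were Lta4h with Ptges3, Ptgs1 with Ptges, Ptges with Ptgs2, Ptgs2 with Ltc4s and Ltc4s with Alox5. Within each library Lta4h was still above Ptges3 and Ptges above Ptgs2, while the other pairs of these changed order between the libraries. The other quantification gave lower mean levels for all 10 members. The largest relative shifts among those detected were in Ptges3, from 9.98 to 5.77 TPM, Ptgs1, from 2.76 to 1.67 TPM, Lta4h, from 10.7 to 6.69 TPM, and Alox5ap, from 27.2 to 17.2 TPM. Its order of means was the same except that Ptges came before Ptgs1. There the values of Ptges3 (4.38 and 7.17 TPM) and Pla2g4a (4.71 and 4.63 TPM) overlapped, and Pla2g4a was the higher in replicate 1.

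For each gene the normalised count of replicate 2 was then divided by that of replicate 1, and the log2 of this ratio was taken. With 1 library on each side the ratio has no replicate check and no p-value, and its interval covers counting error only. Of the 8 members whose mean count reached 50, 1 was more than 2-fold lower in replicate 2, against 3.0% of all 11761 genes at that count. None of the 8 was more than 2-fold higher, against 1.05% of all genes. The gene past 2-fold was Ptges, 2.49-fold lower in replicate 2 (log2 ratio -1.31, 95% counting interval -1.59 to -1.05). On the scale log2(TPM + 0.5) its ratio was -0.93, short of 2-fold, while the median over protein-coding genes on that scale was 0.20 higher in replicate 2. The other quantification gave -1.17 for Ptges (-1.39 to -0.96) and -0.34 for Ptgs2 (-0.57 to -0.11), beside -0.66 for Ptgs2 in the gene table.

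The other 7 members at that count had log2 ratios from -0.66 (Ptgs2) to 0.27 (Ptgs1), and the intervals of Ptgs1, Ptges3 and Lta4h held 0. The median over all 10 members was -0.17, with 4 above 0, beside 0.01 over 11751 protein-coding genes, of which 5948 were above 0. Ltc4s, at a mean count of 12, had a log2 ratio of 1.78 with an interval from 0.46 to 3.48. The other quantification gave Ltc4s 15 and 29.0 counts and a log2 ratio of 0.85, short of 2-fold. Its interval there, from -0.08 to 1.88, held 0. Markers of mast cells, basophils and eosinophils were mixed. Hdc had 151 counts in replicate 1 and 48 in replicate 2, while Kit had 41 and 68 counts, and the 10 markers other than Hdc summed to 0.350 and 0.770 TPM. Cpa3, Mcpt4, Tpsb2, Tpsab1, Mcpt8 and Epx were at 0 in the gene table, but the other quantification gave 13 and 19 counts to Cpa3 and 3 and 2 to Epx. The part of such cells in the Ltc4s ratio was not tested. By normalised counts all 8 macrophage markers had ratios below 0, from -0.11 (Mertk) to -1.14 (Fcgr1). On the scale log2(TPM + 0.5), where the median over protein-coding genes was 0.20, Csf1r stood at 0.44, Mertk at 0.13 and Mpeg1 at 0.06. The other macrophage markers were below 0 there too. Of the 15 markers of any list whose mean count reached 10, 14 had normalised-count ratios below 0, with a median of -0.39. Among protein-coding genes 5803 of 11751 were below 0. The part of the markers in the members' ratios was not tested. The starting amount of RNA differed between the replicates, and its part in these ratios cannot be told apart from other differences between them.

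**Figure D2:**
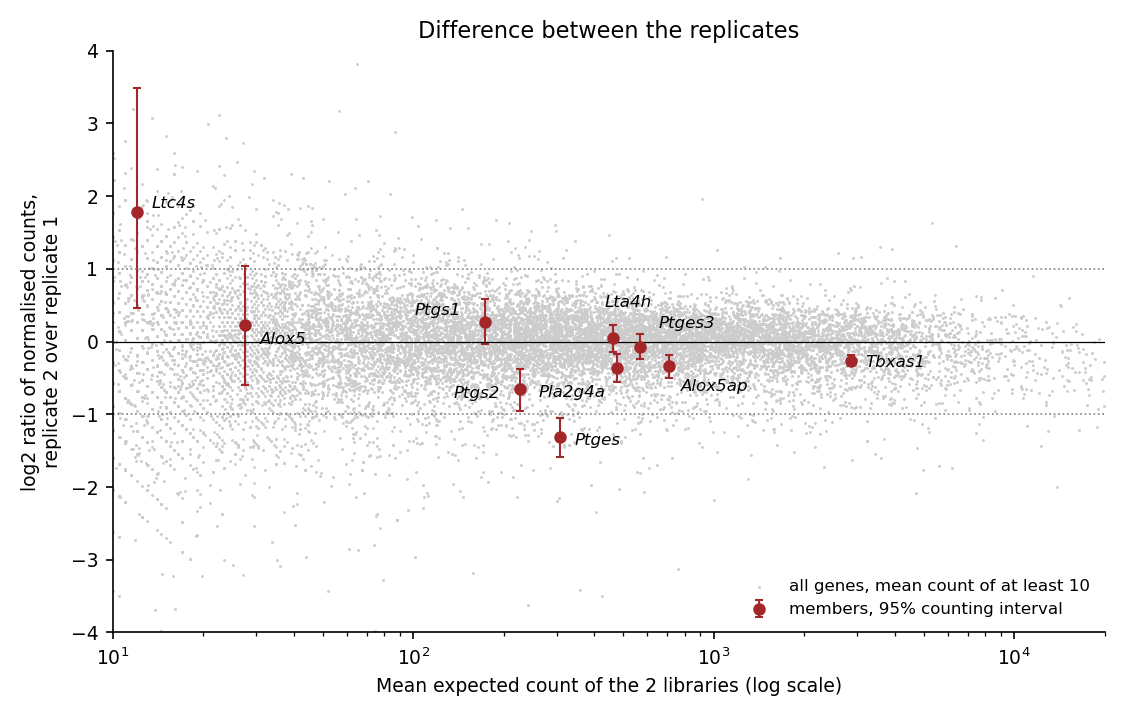
Log2 ratio between the normalised counts of replicate 2 and replicate 1, against the mean expected count on a log scale; red points are the 10 members with 95% counting intervals, grey points are all genes whose mean count reached 10, inside the axes, and dotted lines mark 2-fold. Ptges lies below the lower dotted line with its whole interval, and Ltc4s lies above the upper line with an interval that reaches below it.

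The transcript tables assign the reads of a gene to its annotated transcripts, some of which are classed as retained introns, that is, transcripts that keep an intron the coding form has spliced out. Such a transcript is annotated for 7 of the members. In nuclear RNA, reads from introns not yet spliced out can also be assigned to it. Their part in the shares below was not tested. In Tbxas1 the retained-intron forms took 52.2% of the gene's TPM in replicate 1 and 55.5% in replicate 2, or 53.8% ± 2.36 (SD, n = 2), and in Lta4h 50.9% and 51.3%. Over 5972 detected protein-coding genes with both kinds of transcript the median was 26.7%, with quartiles of 14.6% and 41.3%. Tbxas1 was above 88.0% and Lta4h above 85.8% of these genes. By expected count the forms took 75.04% in Tbxas1 and 34.3% in Lta4h on average, beside a median of 15.4% over the same genes.

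The main forms of Tbxas1 were the coding Tbxas1-201, with 24.95% and 25.6% of its TPM, and the retained-intron Tbxas1-205, with 23.3% and 24.1%, and both end at the same last base of the gene. By counts Tbxas1-205 led, at 1501 and 1020 reads against 656 and 443 for Tbxas1-201. The other retained-intron forms, Tbxas1-202 and Tbxas1-204, took 18.9% and 21.2%, and 9.99% and 10.2%. The full coding form of Lta4h, Lta4h-201, took 47.3% and 46.3%, and most of the rest was spread over 5 retained-intron forms. Lta4h-206 led these by TPM, at 20.8% and 15.03%, and Lta4h-205 by counts, at 92.0 and 98.2 reads.

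The remaining members varied in this respect. The share was 20.9% and 25.8% in Pla2g4a and 2.83% and 5.29% in Ptges3, but 8.88% and 14.5% in Pla2g4a and 17.2% and 18.4% in Ptges3 in the other quantification. In Ptgs1 it was 28.2% and 10.3%, though only 4.52% of its expected count on average. The other quantification gave Ptgs1 higher shares, 45.8% and 29.0% of its TPM. Ptgs2-201, of a pair of coding forms, took all of the Ptgs2 TPM in both libraries, but 62.4% and 50.02% in the other quantification, where Ptgs2-202 took the rest, and the coding Ptges-202 took 95.9% and 100% of that of Ptges. For Alox5 the share was 83.8% and 94.5%, but from fewer than 30 reads in each library, and for Ltc4s 20.6% and 14.6% from fewer still.

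Some splits between transcripts were not resolved. In Ptgs1 the noncoding form Ptgs1-204 took 37.5% of the TPM in replicate 1 and 0% in replicate 2. The authors' table gives 82.7 counts with an SD of 29.5 to this form in replicate 1, and 78.9 counts with an SD of 29.6 to the coding Ptgs1-201. In Alox5ap the coding Alox5ap-201 took 50.7% and 87.1%, and Alox5ap-202, also coding, 20.5% and 0%. The other quantification put more on processed transcripts, a noncoding class, in Ptges and Pla2g4a. It gave Ptges-202 only 39.7% and 42.8% of the Ptges TPM and Tbxas1 retained-intron forms 38.9% and 45.3%, and it gave 56.7% on average to those of Lta4h.

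**Figure D3:**
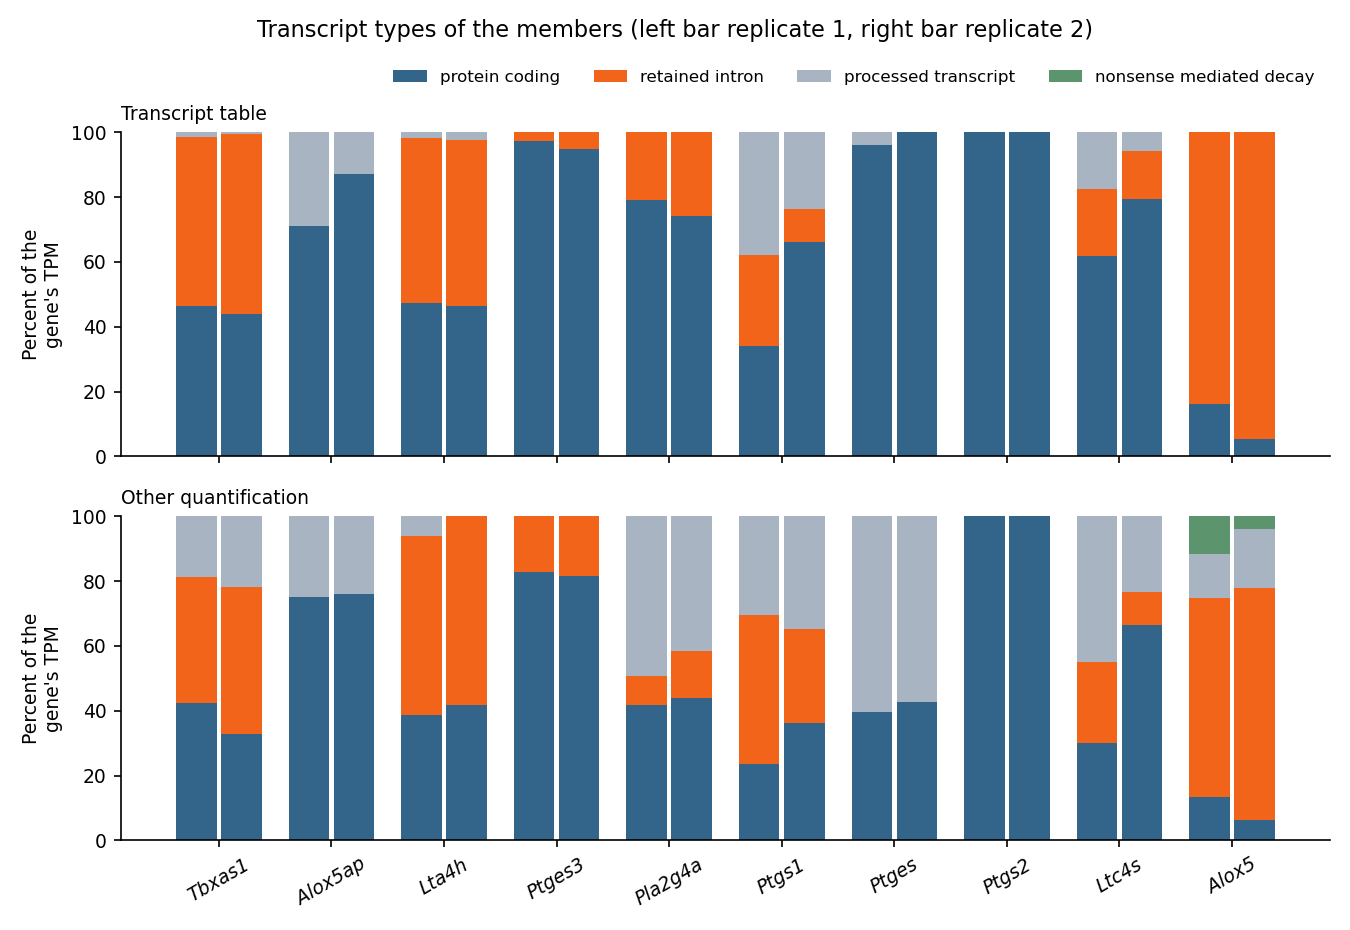
Percent of each member's TPM by annotated transcript type, for replicate 1 (left bar of each pair) and replicate 2 (right bar), from the transcript table (top) and the other quantification (bottom); genes are in the order of mean TPM. Tbxas1, Lta4h and Alox5 show the largest retained-intron shares on average in both, and Ptgs2 none.

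Several members share their locus with other annotated genes. Within 10 kb of a member or overlapping it lay 23 genes, of which 10 overlapped and 8 of these were on the opposite strand. The strandedness of the libraries is not given in the sources used here. Whether reads of a member and of an opposite gene were told apart where they overlap is therefore not known. Over Tbxas1 lie the antisense genes Gm42962, with 11 and 12 counts, and 1700025N23Rik, with 57 and 36 counts, both small beside the 3386 and 2333 counts of Tbxas1. The other quantification gave these antisense genes more, 155 and 200 for Gm42962 and 317 and 392 for 1700025N23Rik. Hipk2, on the other strand, overlaps the far upstream end of Tbxas1 and had 2461 and 2637 counts. For Ltc4s, where the antisense gene drew the larger count, the level is uncertain on this account too.

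The rest of the pathway was read from a list of 70 further genes in 9 roles. Of these 70 genes 31 were detected, beside 42.9% of all protein-coding genes (9443 of 22028). The highest was Hpgds, the haematopoietic prostaglandin D synthase, at 101 TPM in replicate 1 and 113 TPM in replicate 2, or 107 ± 8.08 TPM (SD, n = 2). It was 2.71 times the Tbxas1 level in replicate 1 and 3.20 times in replicate 2. Retained-intron forms took 65.7% and 57.1% of its TPM and 51.6% and 44.7% of its expected count. A pseudogene on the opposite strand, Gm17147, overlaps it at 56.2 and 71.8 TPM. These came from 483 and 421 counts, beside 9295 and 7912 for Hpgds. Among 7 other prostanoid synthases 4 were detected, with Akr1b3, a prostaglandin F synthase, at 8.62 ± 0.750 TPM and Fam213b, another, at 6.07 ± 2.42 TPM (SD, n = 2). Ptgis, the prostacyclin synthase, was at 0 in both libraries of both tables.

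Upstream, 4 of 12 further phospholipases A2 were detected. Pla2g15, a lysosomal phospholipase A2, stood at 47.3 ± 2.92 TPM (SD, n = 2), above Pla2g4a in both libraries. Pla2g7, the platelet-activating factor acetylhydrolase, followed at 11.2 ± 3.91 TPM and Pla2g16 at 2.68 ± 1.13 TPM. Of 12 genes that bind arachidonate to coenzyme A, return it to phospholipids or free it from other lipids 9 were detected, led by Abhd12 at 63.4 ± 6.52 TPM, the acyl-CoA synthetase gene Acsl1 at 25.9 ± 5.20 TPM and the acyltransferase gene Lpcat2 at 20.5 ± 1.93 TPM.

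Beside Alox5, none of 5 other lipoxygenase genes was detected. Alox15 and Alox12b were at 0 in both libraries of both tables, which allows up to 3 counts in each, while Alox8 was at 0 in the gene table and had 34.8 and 53.4 counts in the other quantification. None of 5 genes of the epoxygenase branch was detected. Of 8 genes grouped under glutathione transfer and the peptide steps of leukotriene metabolism 3 were detected. They included Dpep2 at 17.7 ± 2.79 TPM, a dipeptidase of the cysteinyl leukotrienes, and Mgst1 at 12.6 ± 5.51 TPM. The third was the cytochrome P450 gene Cyp4f18, listed in this group though it serves neither step, at 1.40 ± 0.375 TPM (SD, n = 2). Of 6 genes for inactivation and export 4 were detected, with the exporter gene Abcc1 at 11.8 ± 4.96 TPM, the reductase gene Ptgr2 at 7.77 ± 1.52 TPM and the exporter gene Abcc4 at 3.96 ± 0.0919 TPM.

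Receptors for the products were partly detected. Of 9 prostanoid receptor genes 4 were detected: Ptger4 stood at 9.59 ± 0.170 TPM, Ptger1 at 6.08 ± 0.332 TPM and Ptger2 at 4.92 ± 0.877 TPM (SD, n = 2), all receptors of prostaglandin E2, and the fourth was the prostacyclin receptor gene Ptgir. The SD from assigning reads was 51.7 and 43.05 counts for Ptger1, of 866 and 641, beside 2.31 and 1.97 for Ptger4. The thromboxane receptor gene Tbxa2r was at 0 in the gene table and had 5 and 3 counts in the other quantification. Of 6 leukotriene and lipoxin receptor genes 3 were detected, namely Fpr2 at 10.9 ± 5.88 TPM, Cysltr2 at 4.81 ± 0.679 TPM and Cysltr1 at 3.82 ± 0.509 TPM, the last 2 being receptors of cysteinyl leukotrienes. The leukotriene B4 receptor gene Ltb4r1 had 5 and 4 counts.

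Of the 36 pathway genes whose mean count reached 50, 4 were more than 2-fold lower in replicate 2 (3.0% of all genes were) and 1 was more than 2-fold higher (1.05% of all genes). The lower ones were Fpr2 at a log2 ratio of -1.43, Fam213b at -1.30, Pla2g16 at -1.05 and Pla2g7 at -1.04, and the higher one was Ggt5, a gamma-glutamyltransferase gene, at 1.17. In the other quantification Fpr2 alone of these 5, at -1.41, stayed past 2-fold, with -0.95 for Pla2g7, -0.73 for Fam213b, -0.58 for Pla2g16 and 0.75 for Ggt5. On the scale log2(TPM + 0.5) Pla2g7, Fam213b and Pla2g16 also fell short, at -0.69, -0.77 and -0.74. Of the detected pathway genes 23 of 31 overlap another annotated gene, and their levels carry the same uncertainty about strand where that gene is on the opposite one.

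**Figure D4:**
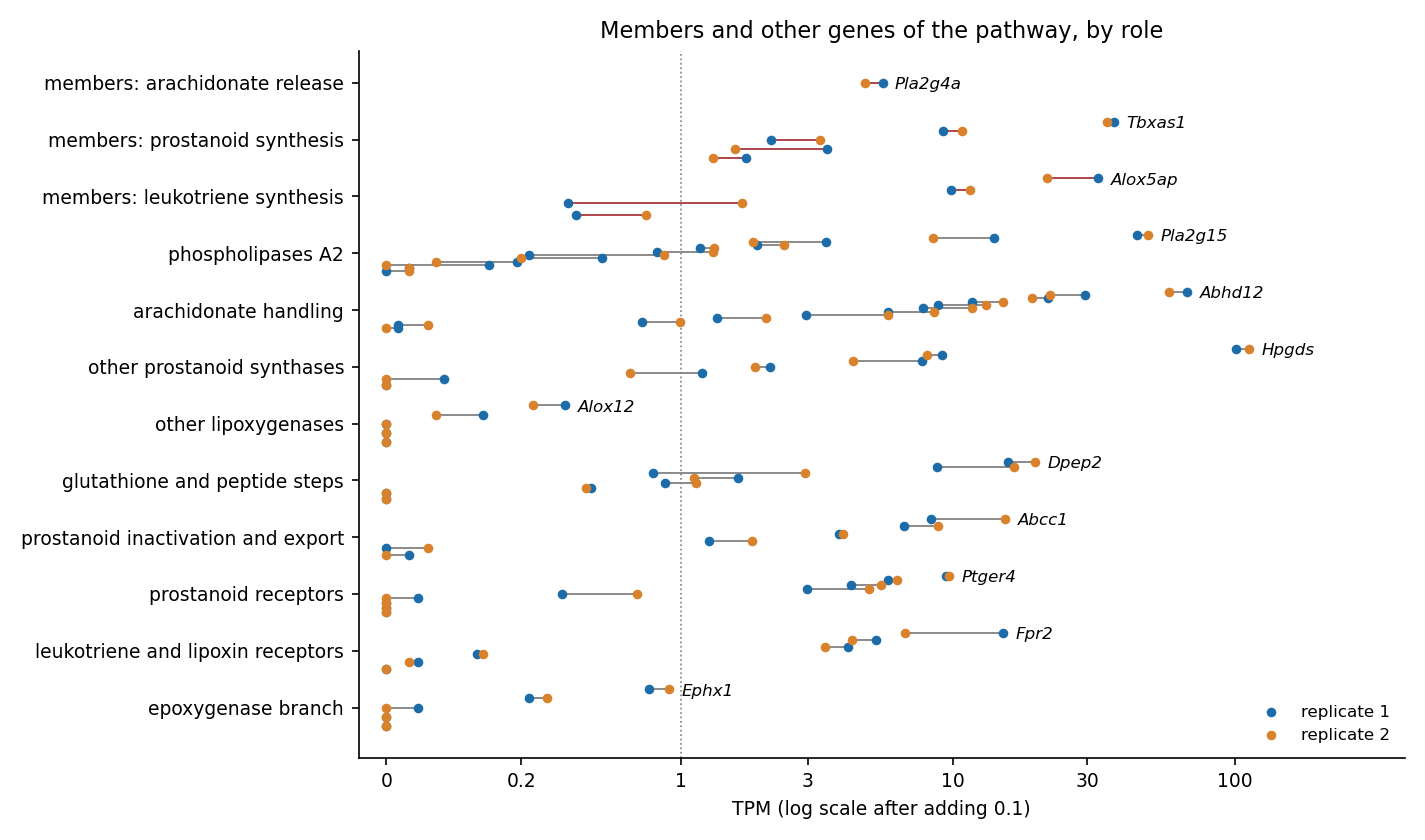
TPM of the members (red lines) and of 70 other pathway genes (grey lines) by role, on a log scale after adding 0.1; blue points are replicate 1, orange points replicate 2, each line joins the 2 values of a gene, the dotted line is 1 TPM and the highest gene of each role is named. Hpgds is the highest gene at 101 and 113 TPM, and all other lipoxygenase genes and epoxygenase genes lie under 1 TPM.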

How the data were processed

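RNA of the nuclear fraction was measured in 2 libraries that form 1 group. Per the file headers, the authors' gene tables hold an expected count and a TPM per gene, and their transcript tables add the percent of the gene's TPM on each transcript and the SD of the count from assigning reads. A second deposited transcript table, called the other quantification, gives an estimated count and a TPM. Per the deposited file descriptions, all use mm10 and GENCODE M21. For quantifiers, aligner, versions and strandedness, nothing is stated in the labels or file descriptions. The authors scaled TPM over all features, so TPM held by features other than protein-coding genes lowers the values of protein-coding genes. Rescaled over protein-coding genes alone, the members' median was 18.9 instead of 3.99 TPM. Which features held the rest was not examined.

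Entries that name no gene (1.06% of expected counts in replicate 1 and 0.245% in replicate 2) were left out of library sizes. Expected counts were rounded for edgeR 4.0.16, whose TMM factors (0.945 and 1.06, over genes averaging 10 or more) scaled the ratios, with 0.5 added to each count. The intervals are exact Poisson or conditional binomial intervals at 95% and cover counting error only. The 2 libraries are 1 condition, so no test between conditions exists. The members were given by symbol, and members and lists were chosen with earlier results of these data known. Besides the members, the 3 highest detected genes of each role, any past 2-fold at a mean count of at least 50, genes overlapping or within 10 kb of a member, and pseudogenes bearing a member's symbol were eligible to be named. Others named (Ptgis, Alox15, Alox12b, Alox8, Ptgir, Tbxa2r, Ltb4r1, Ptges3l, Gm17147 and single cell type markers) were chosen after their values were seen. Of 139 listed symbols 138 matched by name and 1 through a RefSeq synonym, and of 2 identifiers named Dpep2 the one with more transcripts was used. Alternatives were DESeq2 1.42.0 size factors, other scales, filters and pseudocounts, the other quantification, and each replicate alone.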

Additional observations from a re-analysis of the deposited data

How the results depend on the processing

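The levels depend on the scale. The members' median of 3.99 TPM became 3.58 in the other quantification, 18.9 when TPM was rescaled over protein-coding genes and 17.8 as CPM, and 4.08 to 4.56 with 1 replicate left out. At a TPM of at least 5 and a count of at least 50, detected members fell from 8 to 4 and detected pathway genes from 31 to 18. Members past 2-fold numbered 0 on deposited TPM (Ptges at -0.93) and 2 with no filter on the mean count (Ltc4s added), beside 1 otherwise. The median ratio of the members moved from -0.17 to 0.067 on deposited TPM, where the median of protein-coding genes was 0.20. Relative to that median, an alternative chosen after seeing the data, Ptges stood at -1.13. As counts not divided by length, the log2 ratio of Ptgs2 to Ptgs1 was 0.32 against -0.82 and that of Lta4h to Ltc4s 5.47 against 3.80. The median retained-intron share over 7 members was 23.4%, but 37.4% in the other quantification and 25.8% to 28.2% with 1 replicate left out. The other 20 alternatives that kept both replicates moved no main value beyond its spread, nor a count beyond 1.5 times. Where a cause is not given by the construction of the alternative, the cause was not tested. No paired analysis was possible because the series holds only 1 group. Depth limits Alox5 and Ltc4s, which had under 30 counts in each library.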
